A study of Mus musculus with 19 samples.

Results

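Collagens and extracellular matrix genes were followed in the gastrocnemius, a fast calf muscle, of mice carrying a C26 tumour. The set was chosen by gene symbol: collagen chains, laminin chains, ADAMTS proteases and ADAMTS-like proteins, and 19 further matrix proteins, matrix enzymes and inhibitors. Among 13067 genes in the deposited table, 80 matched. Of these, 56 had an RPKM, a read count scaled to gene length in kilobases and to library size in M (mega) reads, of at least 1 in at least 5 libraries. The other 24 were below that minimum and entered no test. The 19 libraries fell into 3 groups: 5 from C26 mice given rolipram, 7 from C26 mice given vehicle and 7 from control mice without a tumour. The C26 mice were male Balb/c animals that received C26 cells, a mouse colon cancer line that brings on muscle wasting, under the skin of the right flank at 2 months of age. From day 4 they were injected intraperitoneally with rolipram at 3 mg/kg, a blocker of phosphodiesterase 4, or with ethanol in saline as vehicle. The age, sex and any injection of the control mice are not stated separately, and no group had rolipram without a tumour. All mice ate standard chow. The labels do not state that samples are separate animals, and p-values therefore refer to the spread among samples, which may be technical.

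The extracellular matrix of muscle has an interstitial part, built from collagen fibrils with fibronectin, elastic fibres and small proteoglycans, and a basement membrane of laminins, collagen IV and nidogens that wraps each fibre and vessel. Most fibrillar collagen is made by fibroblasts and tendon cells, while basement membrane proteins are also made by muscle fibres and endothelial cells. Chaperones and cross-linking enzymes such as Serpinh1 and Lox act on collagen during and after secretion, and metalloproteinases of the MMP and ADAMTS families cut matrix proteins under the control of TIMP inhibitors.

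Library sizes, recovered from the spacing of low values, ran from 16.5 to 38.3 M reads in C26 rolipram, from 19.9 to 45.3 M in C26 vehicle and from 18.0 to 22.4 M in control libraries. The summed RPKM of 10 muscle fibre markers was 35808 to 57851 in C26 rolipram, 35267 to 56583 in C26 vehicle and 54634 to 64818 in control libraries. Of 7 epithelial markers, 1 was in the table, Cdh1, and it stayed at or below 0.678 RPKM in every library. Whether tumour cells were present in the muscle was not tested. The libraries of a group were not alike in the matrix genes. C26 vehicle library 7 was the highest of its group in 44 of the 56 members, and control library 4 was the lowest of its group in 42. C26 vehicle libraries 6 and 7 stood apart from the other 5 in fibrillar collagen, so the counts are also given without both, as are member values whose call changed or whose called size moved by over 1.5 times without them, an alternative chosen after the data had been seen.

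RefSeq promoter sequences (GRCm38.p6) were available for 38 of the 56 members. The 150 bases before the start of 4 members are shown, because Col3a1 and Col11a2 are fibrillar collagens that fell in C26 vehicle muscle and Adamts9 and Lama5 are members of other kinds that rose there. Capitals mark TATAAA and GGGCGG, on either strand, so that CCGCCC is a GGGCGG match on the opposite strand. CCAAT was searched too and had no match in these windows.
Col3a1, chr1:45311388-45311537, plus strand: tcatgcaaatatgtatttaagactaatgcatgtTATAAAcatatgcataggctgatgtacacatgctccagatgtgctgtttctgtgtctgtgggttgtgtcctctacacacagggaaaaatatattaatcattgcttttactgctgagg
Col11a2, chr17:34038988-34039137, plus strand: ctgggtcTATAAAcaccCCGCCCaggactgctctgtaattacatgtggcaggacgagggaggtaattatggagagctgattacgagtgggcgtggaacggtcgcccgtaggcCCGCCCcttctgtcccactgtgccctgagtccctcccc
Adamts9, chr6:92943535-92943684, minus strand: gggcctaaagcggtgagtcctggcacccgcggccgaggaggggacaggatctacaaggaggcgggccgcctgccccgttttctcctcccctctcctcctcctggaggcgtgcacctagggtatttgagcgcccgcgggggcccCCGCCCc
Lama5, chr2:180225860-180226009, minus strand: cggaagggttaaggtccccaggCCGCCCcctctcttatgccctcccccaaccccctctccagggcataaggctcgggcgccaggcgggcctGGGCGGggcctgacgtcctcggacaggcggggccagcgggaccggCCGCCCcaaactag
Over 32851 RefSeq promoters, 28.6% held GGGCGG, 7.6% held TATAAA and 24.5% held CCAAT in the same 150 bases. The 56 members had 41 promoters in the table, and those of members that fell in C26 vehicle muscle held GGGCGG in 10 of 23, TATAAA in 3 and CCAAT in 3. The 5 promoters of members that rose held GGGCGG in 5, TATAAA in 0 and CCAAT in 1, and the 13 of members that did not pass held them in 8, 2 and 3. CAGACA was in 4 of the 23, 0 of the 5 and 3 of the 13 promoters, against 10.3% of all promoters. TTCNNNGAA was in none of the 41 and in 4.1% of all promoters. A match is a run of letters and not a shown binding site.

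In C26 vehicle muscle, 17 of the 21 collagen chains tested fell and 0 rose, while the other members went in both directions. Every one of the 8 fibrillar collagen chains tested and every one of the 3 collagen VI chains fell, as did the matricellular proteins Sparc and Postn, while Lox, elastin, the laminin chain Lama5 and the ADAMTS family members Adamts9 and Adamtsl4 rose. Of the 56 members, 29 were lower in C26 vehicle than in control libraries, 9 were higher and 18 did not pass (limma, two-sided, Benjamini-Hochberg adjusted p below 0.05 over all genes). Among the 11141 genes tested, 67% were called, 23.8% lower and 43.3% higher. The members' median log2 change, on the log2(RPKM + 1) scale used throughout, was -0.37, against 0.15 over all genes. The groups did not overlap in 8 members that were lower, with a background of 12.2%, and in 5 that were higher, with a background of 26.9% (39.1% of all genes in either direction). Without C26 vehicle libraries 6 and 7, 34 members were lower, 9 were higher and the median was -0.57. The share of all calls that were higher was 64.6%, but 54.0% after median-of-ratios scaling and 51.6% after quantile normalisation. The median over all genes was then 0.04 and 0.02, and the members' counts were 32 lower and 8 higher, and 33 lower and 8 higher. In all, 6 of the tested members would miss the RPKM minimum without the control libraries, namely Adamtsl1, Adamtsl2, Col11a2, Col14a1, Col24a1 and Postn. Adamtsl2 would also miss it without the C26 rolipram libraries. Adamts15 reached the minimum in 5 C26 vehicle libraries and in no other library. The place of these members in the tested set depends on the level in the groups named, and the counts are a description.

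**Figure D1:**
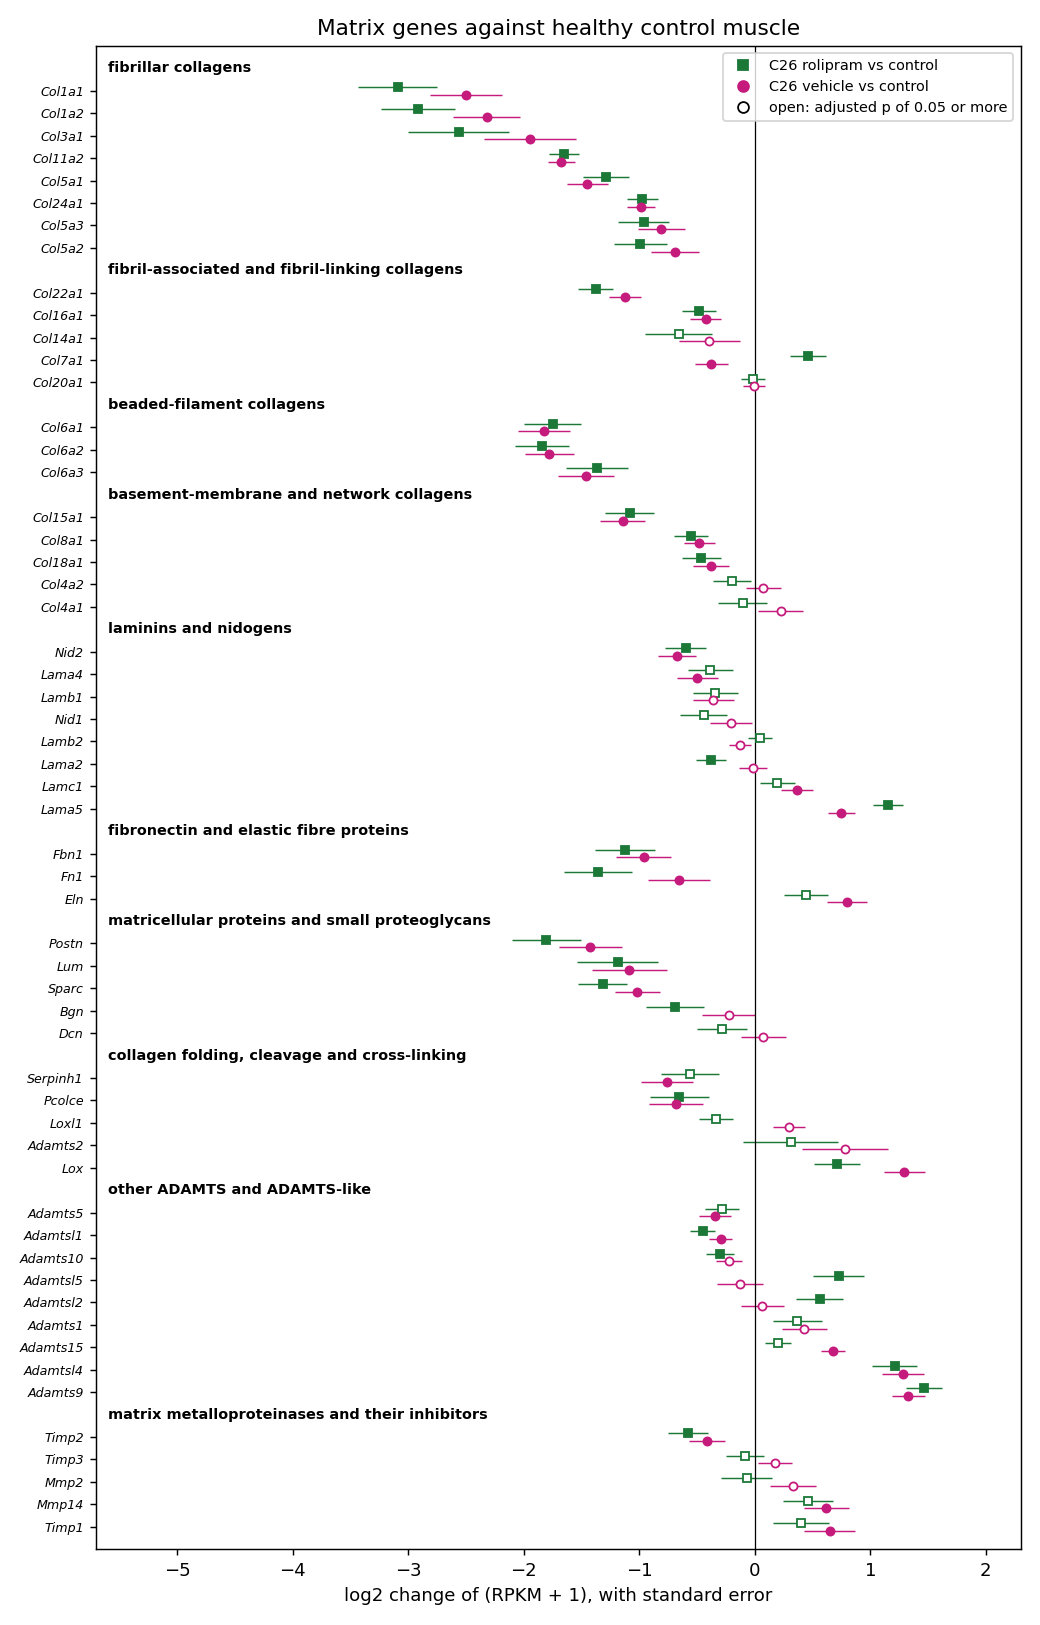
Log2 change on the log2(RPKM + 1) scale of each of the 56 members in C26 rolipram (squares) and C26 vehicle (circles) against the same control libraries, grouped by role, with bars of 1 standard error to each side and open symbols where the adjusted p was 0.05 or more. The fibrillar and beaded-filament collagens lie below 0 in both comparisons, and in C26 vehicle the values run between -2.50 for Col1a1 and 1.33 for Adamts9.

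Col1a1 and Col1a2, the chains of type I collagen, the main collagen of tendon and of the connective tissue of muscle, had the strongest falls among the members on the log2(RPKM + 1) scale. Col1a1 (chromosome 11, 94936224 to 94953042, plus strand, mm10 coordinates from GENCODE) had 3.39, 5.55 and 18.7 RPKM as the lowest, median and highest C26 vehicle values, against 22.6, 45.7 and 87.3 RPKM in control. All 7 C26 vehicle libraries were below all 7 control libraries, with libraries 6 and 7 the highest of C26 vehicle at 13.4 and 18.7 RPKM. The C26 vehicle mean of 8.38 ± 5.7 RPKM (SD, n = 7) was 17.3% of the control mean of 48.6 ± 20.9 RPKM (n = 7), a log2 change of -2.50 ± 0.31 (SE; limma adjusted p = 7.15e-07). Col1a2 (chromosome 6, 4504814 to 4541544, plus strand) had lowest, median and highest values of 7.76, 11.05 and 36.6 RPKM in C26 vehicle and 41.1, 82.5 and 126 RPKM in control. Its groups did not overlap either, and its log2 change was -2.32 ± 0.29 (limma adjusted p = 8.52e-07).

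Col3a1, the chain of type III collagen that forms fine fibrils alongside type I, fell less evenly. It had 4.38, 9.35 and 39.4 RPKM as lowest, median and highest in C26 vehicle, against 23.9, 50.99 and 82.6 RPKM in control. C26 vehicle libraries 6 and 7, at 26.8 and 39.4 RPKM, reached into the control range, and the other 5 lay below it. The log2 change was -1.94 ± 0.40 (limma adjusted p = 0.000242) with all libraries and -2.50 without libraries 6 and 7. Col11a2, a chain of the minor fibrillar type XI better known from cartilage, had 0.484 to 1.28 RPKM in C26 vehicle and 3.22 to 5.55 RPKM in control, with no overlap and a log2 change of -1.67 (adjusted p = 4.63e-10). Col5a1 and Col24a1 also separated without overlap, with log2 changes of -1.45 and -0.98. Col11a2 and Col24a1 would miss the RPKM minimum without the control libraries, so their falls are a description. As a share of the control mean, which does not compress low levels, Col11a2 stood at 16.3%, below the 17.3% of Col1a1, and Col24a1 at 19.2%, below the 21.0% of Col1a2. Type V collagen, which sits inside type I fibrils and sets their diameter, fell in all 3 chains, with log2 changes of -0.69 for Col5a2 and -0.81 for Col5a3 beside Col5a1.

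Markers of cells that make collagen moved with these genes in some lists and not in others. Tendon markers were lower in 7 of 8 tested, against 23.8% of all genes, with summed levels of 36.7 to 136 RPKM in C26 vehicle and 116 to 222 RPKM in control. The sums of C26 vehicle libraries 6 and 7 were 104 and 136 RPKM and those of the other 5 were 36.7 to 44.4 RPKM. Tnmd, a membrane protein typical of tendon cells, averaged 0.816 ± 0.81 RPKM in C26 vehicle and 13.8 ± 4.8 RPKM in control, a log2 change of -3.05 (limma adjusted p = 8.71e-10). For genes of the marker lists and other matrix lists, it was not checked whether they passed the RPKM minimum only through 1 group. The Tnmd value and the counts of all these lists are therefore a description. Of 12 tested markers of fibroblasts and fibro-adipogenic progenitors, 4 were lower, among them Thy1 at -1.07, and 2 were higher, among them Ly6a at 1.31, which is near the 23.8% of all genes for the lower ones and under the 43.3% for the higher ones. Pdgfra, the receptor that defines those progenitors, had a log2 change of 0.25 that did not pass (adjusted p = 0.204). The fibroblast sums were 313 to 699 RPKM in C26 vehicle and 301 to 615 RPKM in control. In bulk muscle, fewer cells of a type and less RNA per cell cannot be told apart, and the part of either cell type, or of tendon in the dissected piece, in the collagen result was not tested.

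**Figure D2:**
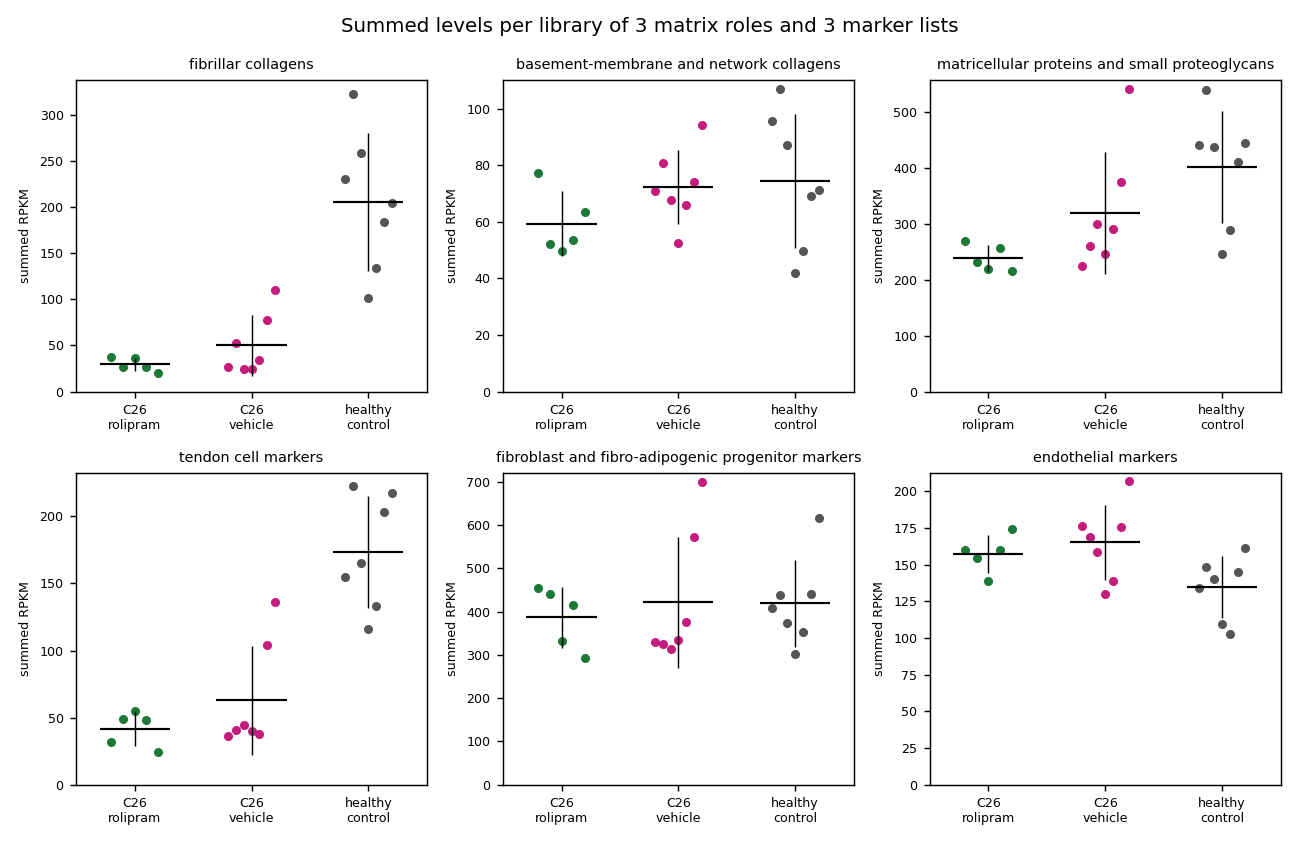
Summed RPKM per library (points) of 3 matrix roles and 3 marker lists, by group in the order C26 rolipram, C26 vehicle and control, on linear axes from 0, with the group mean (horizontal line) and SD (vertical line). C26 vehicle libraries 6 and 7, at 77.9 and 110 RPKM of fibrillar collagen, stand above the other 5 of their group.

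Collagen VI, which forms beaded filaments next to the basement membrane of muscle fibres, fell in all 3 tested chains. A further chain, Col6a6, was below the minimum, at means of 0.251 RPKM in C26 vehicle and 0.770 RPKM in control with overlapping ranges. Col6a1 (chromosome 10, 76708792 to 76726168, minus strand) had 3.05, 3.77 and 11.7 RPKM as lowest, median and highest in C26 vehicle and 12.1, 23.9 and 27.3 RPKM in control. The highest C26 vehicle library lay just under the lowest control library, and the log2 change was -1.83 ± 0.23 (limma adjusted p = 7.29e-07). Col6a2 also fell without overlap, with a log2 change of -1.78, and Col6a3 fell by 1.46 on the log2 scale with overlapping groups. Among the fibril-associated collagens, which coat or link fibrils, Col22a1 fell without overlap, to 0.68 to 2.07 RPKM in C26 vehicle against 3.29 to 4.83 RPKM in control. Col22a1 is known from the junction of muscle with tendon, and its log2 change was -1.12 (adjusted p = 7.86e-07). Col16a1 fell by 0.42, while Col14a1 and Col20a1 had log2 changes of -0.40 and -0.01 that did not pass. Without C26 vehicle 6 and 7, Col14a1 was called lower at -0.84 (adjusted p = 0.000121). Col14a1 would miss the minimum without the control libraries, so this value is a description. Col7a1, the collagen of anchoring fibrils, had a log2 change of -0.38 (adjusted p = 0.0224), which did not pass without control library 5 (-0.30, adjusted p = 0.0589).

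Basement membrane collagen IV did not follow the fibrillar chains in its tested chains, Col4a1 and Col4a2. Col4a1, its most abundant chain here, had 27.5, 38.1 and 50.03 RPKM as lowest, median and highest in C26 vehicle and 17.7, 30.7 and 52.3 RPKM in control. The C26 vehicle libraries lay inside the control range, and the log2 change of 0.22 ± 0.19 did not pass (limma adjusted p = 0.319). Col4a2, whose gene lies head to head with Col4a1 on chromosome 8, had a log2 change of 0.07 ± 0.15 that did not pass either. Col4a3, Col4a4 and Col4a5 were below the minimum. Their means were 0.129, 0.196 and 0.236 RPKM in C26 vehicle and 0.351, 0.288 and 0.564 RPKM in control. Ranges overlapped in Col4a4 and Col4a5 and not in Col4a3. Col15a1 and Col18a1, collagens that attach to basement membranes, had log2 changes of -1.14 (adjusted p = 3.21e-05) and -0.38 (adjusted p = 0.0346). The Col18a1 call was lost in 8 of the 14 fits that left out 1 library, and its log2 change was -0.59 without C26 vehicle 6 and 7 together. Col8a1, a network collagen of vessels, fell by 0.48.

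Laminins, the cross-shaped trimers of the basement membrane, went in both directions. Lama5 (chromosome 2, 180176373 to 180225859, minus strand), an alpha chain of vessel and synaptic basement membranes, had 7.85, 8.92 and 11.2 RPKM as lowest, median and highest in C26 vehicle and 4.25, 5.02 and 6.24 RPKM in control. All C26 vehicle libraries were above all control libraries, and the log2 change was 0.75 ± 0.12 (limma adjusted p = 1.06e-05). Lama4, another alpha chain of vessels, fell by 0.50, and Nid2, which links laminin to collagen IV, fell by 0.68. Lama2, the alpha chain that ties muscle fibres to their basement membrane, had 5.37 ± 1.1 RPKM in C26 vehicle and 5.46 ± 1.2 RPKM in control, a log2 change of -0.02 that did not pass. Lamb1, Lamb2 and Nid1 had log2 changes of -0.36, -0.13 and -0.21 that did not pass. Without C26 vehicle 6 and 7, Lamb1 was called lower at -0.57 (adjusted p = 0.00307) and Lamb2 at -0.22 (adjusted p = 0.0444). Lamc1, the common gamma chain, was 0.37 higher (adjusted p = 0.0241), but did not pass after median-of-ratios scaling (0.24, adjusted p = 0.112) or quantile normalisation (0.09, adjusted p = 0.548). It also did not pass without control 4, control 5 or C26 vehicle 3, where adjusted p was at most 0.0616.

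Eln, the elastin of vessel walls and connective tissue, had 11.4, 16.0 and 19.3 RPKM as lowest, median and highest in C26 vehicle and 6.18, 7.60 and 12.7 RPKM in control. C26 vehicle 4 lay inside the control range and the other 6 lay above it, and the log2 change was 0.80 ± 0.17 (limma adjusted p = 0.000399). Fbn1, the fibrillin of microfibrils on which elastin is laid, fell by 0.96 (adjusted p = 0.00126), and a gene on the opposite strand overlaps 20.1% of its exonic bases. Fn1, fibronectin, had 2.87, 5.27 and 16.7 RPKM in C26 vehicle and 5.88, 11.1 and 15.6 RPKM in control as lowest, median and highest. Libraries 6 and 7 of C26 vehicle had 10.5 and 16.7 RPKM and the other 5 had at most 5.46 RPKM. The Fn1 log2 change was -0.65 ± 0.27 (adjusted p = 0.0375) and was not called in 9 of the 14 fits without 1 library, with adjusted p up to 0.0947. It was -1.06 without C26 vehicle 6 and 7 together.

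Sparc, a collagen-binding matricellular protein, had 58.7, 84.7 and 126 RPKM as lowest, median and highest in C26 vehicle and 96.3, 160 and 269 RPKM in control. The log2 change was -1.02 ± 0.20 (limma adjusted p = 0.00012), with C26 vehicle 7 the single library of its group above the lowest control. Postn, which is secreted by activated fibroblasts, and Lum, a small proteoglycan that regulates fibril spacing, fell by 1.42 and 1.09. Postn would miss the RPKM minimum without the control libraries, so its fall is a description. Dcn and Bgn, the small proteoglycans decorin and biglycan, did not pass. Bgn had a log2 change of -0.23 with all libraries, and was called lower without C26 vehicle 6 and 7 (-0.60, adjusted p = 0.00277). Dcn was the most abundant member in each group, at 208 ± 77 RPKM in C26 vehicle and 191 ± 43 RPKM in control (log2 change 0.07, adjusted p = 0.748).

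Among proteins that process new collagen, Serpinh1, the collagen chaperone of the endoplasmic reticulum, and Pcolce, which enhances removal of the C-terminal propeptide, fell by 0.76 and 0.68. Lox, the enzyme that oxidises lysines for collagen and elastin cross-links, went the other way. It had 3.73, 7.19 and 9.37 RPKM as lowest, median and highest in C26 vehicle and 1.06, 1.98 and 3.17 RPKM in control. All C26 vehicle libraries were above all control libraries, with a mean 3.16-fold higher and a log2 change of 1.29 ± 0.18 (limma adjusted p = 3.07e-06). Adamts2, which removes the N-terminal propeptide of procollagen, averaged 5.96 ± 4.8 RPKM in C26 vehicle and 2.303 ± 0.47 RPKM in control. Its spread between C26 vehicle libraries was wide, and its log2 change of 0.78 did not pass (adjusted p = 0.07). Without C26 vehicle 6 and 7 it was called higher at 1.09 (adjusted p = 0.0266).

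The largest rise was in the ADAMTS family. Adamts9 (chromosome 6, 92772699 to 92943492, minus strand), a protease that cuts the proteoglycans versican and aggrecan, had 3.90, 6.00 and 6.42 RPKM as lowest, median and highest in C26 vehicle and 1.06, 1.69 and 2.17 RPKM in control. Every C26 vehicle library was above every control library, and the log2 change was 1.33 ± 0.14 (limma adjusted p = 1.04e-07). Genes on the opposite strand overlap 12.0% of its exonic bases, and the strand setting of the counting is not given in the sources used here. Adamtsl4, an ADAMTS-like protein without protease activity that binds fibrillin, had 14.7, 19.5 and 22.8 RPKM in C26 vehicle and 4.76, 6.68 and 11.5 RPKM in control. Its groups did not overlap, and its log2 change was 1.28 ± 0.18 (adjusted p = 3.49e-06). Adamts15, a versican-cutting protease, had 0.947 to 1.95 RPKM in C26 vehicle and 0.26 to 0.699 RPKM in control, a log2 change of 0.68 (adjusted p = 1.01e-05). This value is a description, because Adamts15 entered the tested set only through its C26 vehicle levels. Adamtsl1 was 0.30 lower (adjusted p = 0.0126), a description too, because it would miss the minimum without the control libraries. Adamts5, the other well-known aggrecanase, was 0.34 lower (adjusted p = 0.0313), a call lost in 5 of the 14 fits without 1 library, and 0.52 lower without C26 vehicle 6 and 7 together. Adamts1, Adamts10, Adamtsl2 and Adamtsl5 had log2 changes of 0.43, -0.22, 0.06 and -0.13 that did not pass, but Adamts10 was called lower without C26 vehicle 6 and 7 (-0.33, adjusted p = 0.0134).

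Of the metalloproteinases, Mmp14, a membrane protease that cuts collagen and activates Mmp2, rose by 0.62 (limma adjusted p = 0.00882). Mmp2, a gelatinase, averaged 24.5 ± 8.4 RPKM in C26 vehicle and 19.2 ± 5.8 RPKM in control and did not pass (log2 change 0.33). Their inhibitors differed. Timp1 was 0.65 higher (adjusted p = 0.0141), but 0.47 and not called without C26 vehicle 6 and 7 (adjusted p = 0.0867). Timp2 was 0.41 lower (adjusted p = 0.0258), a call lost without control 7, C26 vehicle 1 or C26 vehicle 2, with adjusted p up to 0.0641, and was 0.65 lower without C26 vehicle 6 and 7 together. Timp3, bound to the matrix itself, had 38.6 ± 6.2 RPKM in C26 vehicle and 34.2 ± 6.6 RPKM in control and did not pass. A gene on the opposite strand overlaps 21.3% of its exonic bases.

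**Figure D3:**
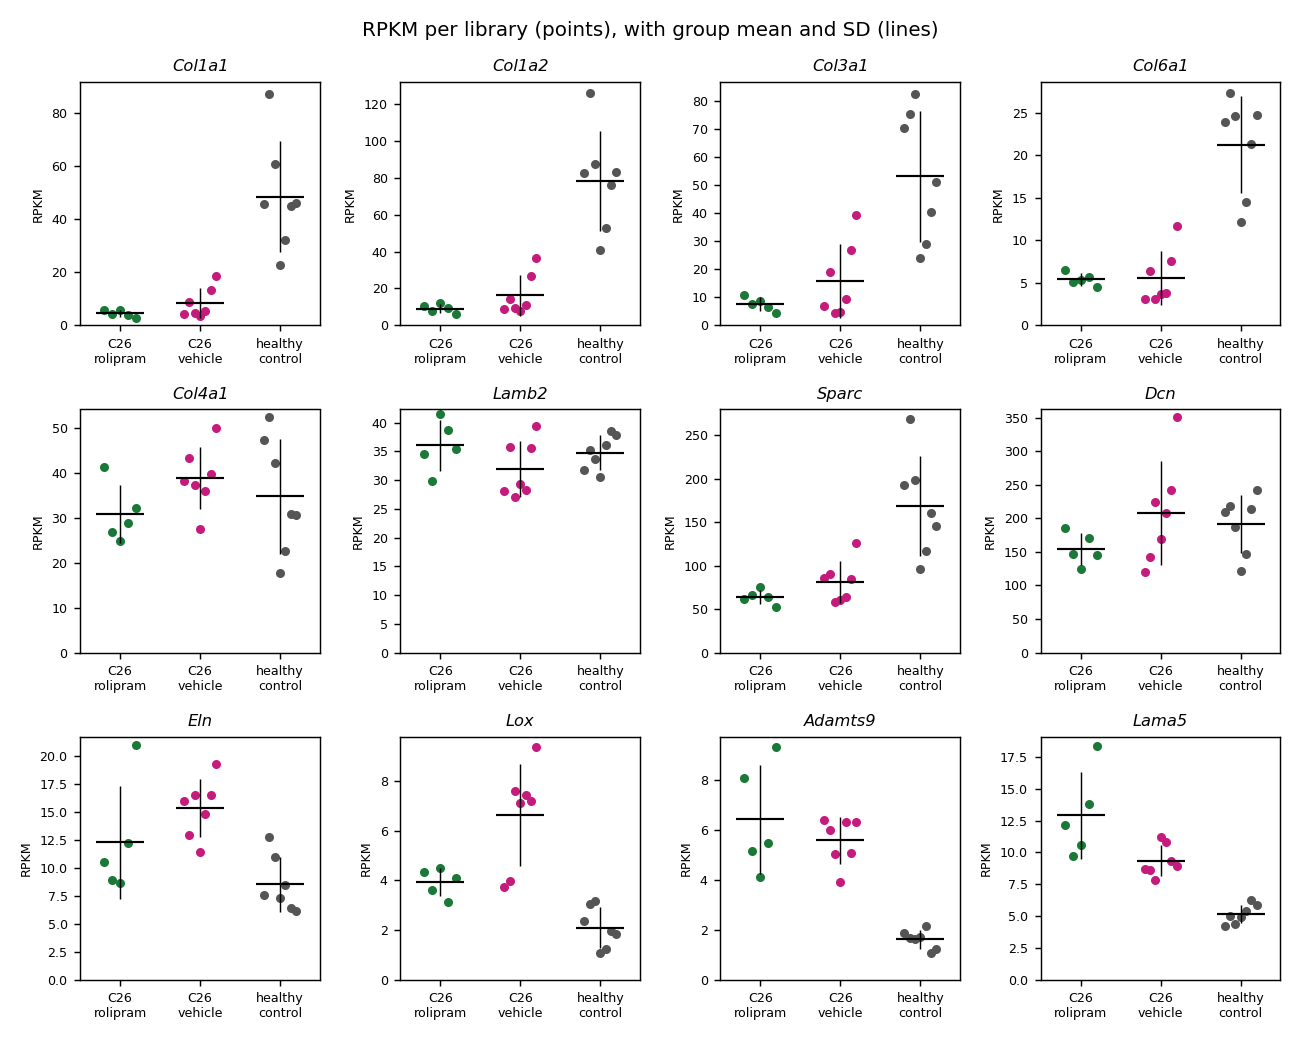
RPKM per library (points) of 12 members, by group in the order C26 rolipram, C26 vehicle and control, on linear axes from 0, with the group mean (horizontal line) and SD (vertical line). The C26 vehicle libraries of Col1a1 lie between 3.39 and 18.7 RPKM, below all control libraries, and those of Lox, Lama5 and Adamts9 lie above all control libraries.

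Rolipram was set against vehicle among C26 mice. No fibrillar, beaded-filament or basement membrane collagen passed. Of the 56 members, 3 were higher in C26 rolipram than in C26 vehicle libraries, Col7a1, Adamtsl5 and Lama5, and 3 were lower, Loxl1, Adamts15 and Lox (limma, adjusted p below 0.05). Among all genes tested 17.1% were called, 9.78% higher and 7.32% lower. The 3 of 56 in each direction were not tested against these shares, and such small counts are a description. The groups did not overlap in 2 members, both higher. Without overlap, 4.08% of all genes differed, 2.27% upwards and 1.8% downwards. The members' median log2 change was -0.15, against -0.01 over all genes, and it was 0.03 without C26 vehicle 6 and 7, when 3 members were higher and 2 lower. Adamtsl2 was then called higher (0.65, adjusted p = 0.0231), and Lama5 (0.39, adjusted p = 0.0516) and Lox (-0.45, adjusted p = 0.116) were not called. The Adamtsl2 value is a description, because Adamtsl2 would miss the RPKM minimum without the C26 rolipram libraries. C26 vehicle 6, left out here, also held its highest vehicle value, 2.22 RPKM.

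Col7a1 (chromosome 9, 108953586 to 108984875, plus strand) had 8.87, 9.98, 4.31, 7.17 and 5.72 RPKM in C26 rolipram libraries 1 to 5 and 2.86, 3.55 and 3.98 RPKM as lowest, median and highest in C26 vehicle. Every rolipram library was above every vehicle library, and the mean was 2.08-fold higher. The log2 change was 0.84 ± 0.15 (limma adjusted p = 0.0016). Adamtsl5 (chromosome 10, 80339110 to 80348412, minus strand), a protein of fibrillin microfibrils, had 33.3, 25.7, 27.2, 31.5 and 28.3 RPKM in C26 rolipram and 7.44, 13.6 and 24.4 RPKM in C26 vehicle as lowest, median and highest. The groups did not overlap, although C26 vehicle 2, 6 and 7 came close at 23.0, 23.7 and 24.4 RPKM. The log2 change was 0.85 ± 0.22 (adjusted p = 0.0124).

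Loxl1, a relative of Lox that cross-links elastin, had 2.99, 2.40, 2.54, 2.13 and 3.18 RPKM in C26 rolipram and 3.05, 4.80 and 6.54 RPKM as lowest, median and highest in C26 vehicle. Only rolipram library 5 exceeded the lowest vehicle library, and the log2 change was -0.63 ± 0.15 (limma adjusted p = 0.00787). Adamts15 had 0.920, 0.6248, 0.423, 0.509 and 0.965 RPKM in C26 rolipram and 0.947, 1.26 and 1.95 RPKM in C26 vehicle, with a log2 change of -0.48 ± 0.11 (adjusted p = 0.00857). It was tested only because C26 vehicle libraries reached the minimum, so its lower level in C26 rolipram is a description. The calls of Col7a1, Adamtsl5, Loxl1 and Adamts15 held in all alternatives run. Lama5 had a log2 change of 0.40 (adjusted p = 0.0332) that was lost in 5 of the 12 fits without 1 library, with adjusted p up to 0.0944. Lox had a log2 change of -0.58 (adjusted p = 0.0456) that was lost in 9 of those 12 fits, with adjusted p up to 0.111.

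The fibrillar collagens were not separated between the treated groups. Col1a1 had 5.87, 4.35, 5.90, 3.83 and 2.71 RPKM in C26 rolipram, all within the C26 vehicle range except library 5, which was below it. The log2 change was -0.59 ± 0.34 (limma adjusted p = 0.236), and -0.17 without C26 vehicle 6 and 7. Col1a2 and Col3a1 had log2 changes of -0.60 and -0.62 that did not pass, and -0.16 and -0.07 without those libraries. Col6a1 averaged 5.42 ± 0.75 RPKM in C26 rolipram and 5.61 ± 3.2 RPKM in C26 vehicle. Fn1 had 3.69, 2.55, 4.14, 3.58 and 2.86 RPKM in C26 rolipram, and its log2 change of -0.71 did not pass (adjusted p = 0.103). A p that misses the threshold does not show that rolipram and vehicle muscle had the same level.

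**Figure D4:**
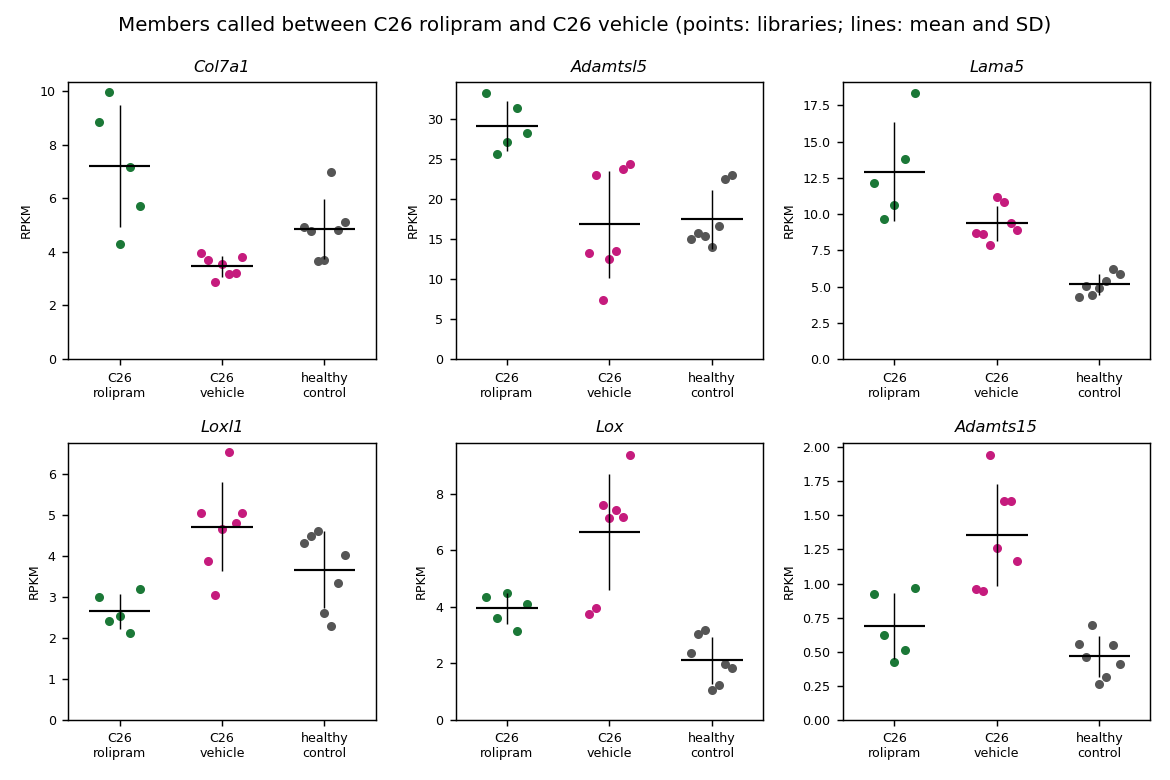
RPKM per library (points) of the 6 members called between C26 rolipram and C26 vehicle, with control libraries at the right, on linear axes from 0, with the group mean (horizontal line) and SD (vertical line). Col7a1 and Adamtsl5 show no overlap between C26 rolipram and C26 vehicle, while Lama5, Lox, Loxl1 and Adamts15 overlap.

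C26 rolipram against control uses the same control libraries as C26 vehicle against control, so the values stand side by side and their likeness is no separate result. Of the 56 members, 28 were lower in C26 rolipram than in control libraries and 7 were higher (limma, adjusted p below 0.05), against 16.4% lower and 38.5% higher, or 54.8% called, among all genes. The groups did not overlap in 19 members that were lower, with a background of 10.7%, and in 4 that were higher, with a background of 24.7% (35.4% in either direction). The lower members include Adamtsl1, Col11a2, Col24a1 and Postn, which would miss the RPKM minimum without the control libraries. The higher ones include Adamtsl2 (0.56, limma adjusted p = 0.025), which would miss it without the control or the C26 rolipram libraries. Its call was lost in 2 of 12 fits without 1 library. These counts are therefore a description. The median log2 change was -0.45, against 0.15 over all genes. The share of all calls that were higher was 70.2%, and 54.3% after median-of-ratios scaling and 52.6% after quantile normalisation, with 35 and 37 members lower.

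Col1a1 averaged 4.53 ± 1.4 RPKM in C26 rolipram (n = 5) and 48.6 ± 20.9 RPKM in control, and its log2 change was -3.09 ± 0.34 (limma adjusted p = 3.47e-07). Col3a1 averaged 7.65 ± 2.4 RPKM in C26 rolipram and 53.2 RPKM in control, and here the groups did not overlap (log2 change -2.56, adjusted p = 5.86e-05). Sparc, Postn and Fn1 were also lower without overlap, with log2 changes of -1.32, -1.81 and -1.36. The Postn value is a description, because Postn would miss the minimum without the control libraries. Bgn and Lama2 were called lower at -0.69 and -0.38, calls lost in 3 and 1 of the 12 fits without 1 library. Lama5, Adamts9 and Adamtsl4 were higher without overlap, at 1.15, 1.47 and 1.21. Lox was higher at 0.71 (adjusted p = 0.00464). Adamtsl5 was 0.72 higher (adjusted p = 0.00792), but 0.43 and not called after quantile normalisation (adjusted p = 0.118). Col7a1, the single collagen called higher, was 0.46 higher (adjusted p = 0.0152), and was not called after median-of-ratios scaling (0.33, adjusted p = 0.0841), after quantile normalisation (0.31, adjusted p = 0.0944) or without rolipram library 1 or 2 (adjusted p up to 0.0632). Eln, at 12.3 ± 5.1 RPKM in C26 rolipram and 8.52 ± 2.4 RPKM in control, did not pass (adjusted p = 0.0531).

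The order of the members by mean RPKM, a level per length, put the same members on top in each group and the type I collagen chains in different places. Dcn was first and Sparc second in each group. Col1a2 was 19th in C26 rolipram, 14th in C26 vehicle and 3rd in control, and Col1a1 had fewer RPKM than Col1a2 in every group. Col4a1 was 5th in C26 rolipram, 3rd in C26 vehicle and 7th in control. Of the summed RPKM of the 56 members, fibrillar collagens made up 4.55 ± 1.1% in C26 rolipram, 5.95 ± 2.3% in C26 vehicle and 19.2 ± 2.7% in control libraries (SD). Laminins and nidogens made up 13.9 ± 1.3%, 11.7 ± 1.3% and 8.85 ± 1.1% of it, in the same order of groups, and ADAMTS family members other than Adamts2 made up 11.9 ± 1.0%, 8.55 ± 1.7% and 4.59 ± 1.0%. These shares sum to a whole, so a fall in 1 kind raises the others.

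Ratios within a library were compared for pairs of chains of the same collagen type, and for Col3a1 to Col1a1, which belong to different types. The tests were exact two-sided permutation tests over 3432 assignments (7 against 7) or 792 (5 against 7), adjusted over 12 tests. The Col1a1 to Col1a2 ratio averaged 0.504 ± 0.053 in C26 vehicle and 0.608 ± 0.064 in control, a log2 difference of -0.27 (exact adjusted p = 0.021). It was called in 13 of 14 comparisons without 1 library, the exception being control 5 (exact adjusted p = 0.0513), but not without C26 vehicle 6 and 7 together (-0.28, exact adjusted p = 0.0606). Its log2 difference in C26 rolipram against control was -0.31 (exact adjusted p = 0.0364), a call lost in 7 of 12. The Col3a1 to Col1a1 ratio averaged 1.69 ± 0.15 in C26 rolipram and 1.10 ± 0.26 in control, a log2 difference of 0.64 (exact adjusted p = 0.021), lost without control 5 (0.60, exact adjusted p = 0.0513). In C26 vehicle it averaged 1.71 ± 0.44, a log2 difference of 0.62 from control (exact adjusted p = 0.0364) that was lost in 8 of 14. The Col6a1 to Col6a2 ratio was higher in C26 rolipram than in control, at 1.90 ± 0.19 and 1.601 ± 0.088 (log2 difference 0.25, exact adjusted p = 0.021), also lost without control 5. The Col4a1 to Col4a2 ratio did not pass in any of the 3 comparisons, and no ratio passed between C26 rolipram and C26 vehicle.

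The 24 members below the minimum are given as levels. In C26 vehicle against control, ranges did not overlap in 6 that were lower, Col11a1, Col12a1, Col8a2, Col4a3, Lamc3 and Adamts20, and in 2 that were higher, Col19a1 and Lama3. The matching share among all genes below the minimum was not computed, so these counts are a description. Col12a1, a fibril-associated collagen of tendon just outside the minimum, averaged 0.274 RPKM in C26 rolipram, 0.32 in C26 vehicle and 0.975 in control. Just inside it, Col24a1 averaged 0.324 RPKM in C26 rolipram, 0.305 in C26 vehicle and 1.59 in control. Col11a1, the partner chain of Col11a2, averaged 0.105, 0.138 and 0.831 RPKM in the same order. Col19a1, a rare fibril-associated collagen, averaged 0.669, 0.815 and 0.139 RPKM, and Adamts4, an aggrecanase, 0.542, 1.07 and 0.181 RPKM. The other members below the minimum averaged under 1 RPKM in each group.

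Other matrix genes, in lists chosen with earlier results of these data known, were counted in C26 vehicle against control beside backgrounds of 43.3% higher and 23.8% lower. These lists share genes with the marker lists, so their counts are not separate results. Kera and Chad are also tendon markers, and Sdc4 is also a satellite cell marker. Small proteoglycans and fibril regulators were lower in 8 of 11 and higher in 0, with Kera at -2.64 and Chad at -2.73, both abundant in tendon or cartilage. Matricellular genes were lower in 7 of 15 and higher in 0, with Igfbp5, an insulin-like growth factor binding protein, at -3.15 and Sparcl1 at -1.42. Elastic fibre and microfibril genes were lower in 4 of 15 and higher in 3, with Mfap4 at -2.15, Ltbp4 at -1.13 and Emilin1 at 0.85. Collagen synthesis enzymes were higher in 8 of 23 and lower in 5. Tgm2, a cross-linking transglutaminase, had a log2 change of 3.00 ± 0.14 (limma adjusted p = 6.12e-13) and P4hb, a prolyl hydroxylase subunit and disulphide isomerase, 1.22, while Colgalt2, which adds galactose to collagen, was at -0.52. Genes on the opposite strand overlap 21.8% of the exonic bases of Tgm2.

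Matrix receptors were higher in 8 of 19 and lower in 2, with the integrin chain Itgb1 at 1.06 and the dystroglycan gene Dag1 at 1.04. Large proteoglycans and hyaluronan genes were lower in 4 of 10 and higher in 3, with the heparan sulphate proteoglycans Gpc1 at -0.75, Sdc2 at -0.88 and Sdc4 at 1.76. Other matrix proteases and inhibitors were higher in 9 of 17 and lower in 5, with Adam15, which shares 20.6% of its exonic bases with a gene on the opposite strand, at 0.69 and Mmp15 at -1.43. In the TGF-beta pathway, a main inducer of collagen transcription in fibroblasts, 7 of 18 were higher and 4 lower, with Tgif1, a repressor of its signalling, at 2.25, the co-receptor Tgfbr3 at 1.30 and the ligand Tgfb2 at -1.11.

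Markers of other cell types were counted in C26 vehicle against control beside the same backgrounds of 43.3% higher and 23.8% lower. Endothelial markers were higher in 4 of 10 and lower in 1, with sums of 130 to 207 RPKM in C26 vehicle and 103 to 162 RPKM in control. Macrophage markers were higher in 7 of 8, with sums of 76.7 to 218 RPKM in C26 vehicle and 28.0 to 124 RPKM in control. Pericyte and smooth muscle markers were lower in 3 of 9 and higher in 1, Schwann cell markers lower in 2 of 7 and higher in 1, adipocyte markers lower in 2 of 6 and muscle fibre markers lower in 3 of 10. Erythroid markers were higher in 5 of 5, both tested neutrophil markers were higher, and of satellite cell markers 1 of 2 was higher. Between C26 rolipram and C26 vehicle, the tendon list had 1 of 8 called, Scx, at 1.06, where 17.1% of all genes were called and 9.78% were higher. The other 7 tendon markers had negative log2 changes, and the median of the list was -0.33. The part of these cell types in the levels of Lama5, Eln, Lox or the ADAMTS genes was not tested.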

How the data were processed

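PolyA RNA of snap-frozen gastrocnemius was sequenced from stranded libraries, per the labels' protocols. The genome build mm10 and the tools STAR 2.5.3a and featureCounts 1.6.4 are named in the submitters' processing notes. The authors deposited RPKM values for 13067 gene symbols in 19 columns. The annotation, the strand setting, the RPKM tool and the choice of listed genes are not given in the sources used here. Library sizes (16.5 to 45.3 M reads) were estimated from the spacing of 468 low values. Each size was chosen so that all low values of its library were whole reads within 0.05 read, so their being whole is no check. The lowest value shared between libraries in 40 genes was assumed to be a prior of 0.25 read. The counting error of the low values was not modelled.

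The 11141 genes that reached 1 RPKM in 5 or more libraries were fitted as log2(RPKM + 1) in limma 3.58.1 (R 4.3.3), with 1 model of the 3 groups over all 19 libraries, trended and robust moderation, and Benjamini-Hochberg adjustment over all genes of a comparison. RPKM is no count, so no count model was used, and log2 changes of genes near 1 RPKM are compressed. The fit was checked on simulated data. Chain ratios were compared by exact permutation.

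The members, roles and gene lists were chosen with earlier results of these data known. Named members were a fixed panel, plus in each role the largest called rise and fall and up to 3 called members against its majority. Named genes of 8 pathway and 12 marker lists were the 3 called genes ranked first by p, 2 moving as most of the list did and 1 against it. Some genes that this rule names are not reported here. Tnmd, Pdgfra and the members below the minimum were named after their values were seen, as were single members such as Lum or Col5a3 that complete a group. Alternatives were a pseudocount of 0.1, no minimum, median-of-ratios scaling, quantile normalisation, untrended moderation, fits of only the groups compared, a replicate block and leaving out each library. Positions are from GENCODE vM21 and promoters from RefSeq.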

Additional observations from a re-analysis of the deposited data

Results flagged for a closer look

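In each group of each of the 56 tested members, the highest and the lowest library were compared with their nearest neighbour (Dixon's test, 168 combinations). A gap above the critical value was found in 8, where chance alone gives about 1 in 20. All were single high libraries.

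Col24a1, a minor fibrillar collagen, stood out in C26 rolipram 3, at 0.832 RPKM against 0.166 to 0.245 RPKM in the other 4, and in C26 vehicle 7, at 0.734 RPKM against 0.182 to 0.319 RPKM in the other 6. Col8a1, the network collagen, stood out in C26 rolipram 5, at 1.06 RPKM against 0.886 to 0.932 RPKM, and in C26 vehicle 7, at 2.35 RPKM against 0.637 to 1.10 RPKM. Fbn1, the fibrillin gene, had 2.89 RPKM in C26 rolipram 1, against 1.39 to 1.53 RPKM in the other 4. Col16a1, a fibril-associated collagen, had 1.83 RPKM in C26 rolipram 3, against 0.948 to 1.16 RPKM. Adamtsl2, an ADAMTS-like protein of microfibrils, had 2.22 RPKM in C26 vehicle 6, against 0.488 to 0.915 RPKM. Col22a1, the collagen of the muscle-tendon junction, had 4.83 RPKM in control 2, against 3.29 to 3.86 RPKM in the other 6.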

How the results depend on the processing

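The counts of members higher and lower stayed within 1.5 times of the reported ones under pseudocount 0.1, no minimum, both other scalings, untrended moderation, fits of only the groups compared and the replicate block. No member reversed. In C26 vehicle against control, 31 of 38 member calls held in all alternatives, in C26 rolipram against C26 vehicle 4 of 6, and in C26 rolipram against control 27 of 35. With the replicate block, the members' median log2 change was -0.0107 in C26 rolipram against C26 vehicle and -0.335 in C26 rolipram against control, and 23 members were lower in C26 rolipram against control. Whether the replicate numbers pair the libraries was not settled. Correlations of same-numbered deviations ran from -0.358 to 0.387. In C26 vehicle against control, numbers 4 to 7 correlated at 0.303, 0.205, 0.152 and 0.203, and 3 of 7 libraries correlated best with their own number. In C26 rolipram against C26 vehicle and against control, 0 of 5 did. Without C26 vehicle 6 and 7, an alternative added after seeing the data, the median of C26 rolipram against C26 vehicle was 0.0259, and the log2 differences from control of the C26 vehicle ratios were -0.28 for Col1a1 to Col1a2 and 0.50 for Col3a1 to Col1a1, neither called.

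Leaving out 1 library at a time moved the median of C26 rolipram against C26 vehicle between -0.196 and -0.0414. In C26 vehicle against control, the log2 ratio differences ran from -0.318 to -0.238 for Col1a1 to Col1a2, from 0.557 to 0.762 for Col3a1 to Col1a1, from 0.116 to 0.191 for Col4a1 to Col4a2 and from 0.0455 to 0.147 for Col6a1 to Col6a2. In C26 rolipram against control they ran from -0.363 to -0.251, from 0.591 to 0.730 and, for Col6a1 to Col6a2, from 0.205 to 0.293. The cause was not tested. Genes near 1 RPKM limit what the compressed scale can show, and 5 rolipram libraries limit that comparison.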

Other observations

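Between C26 rolipram and C26 vehicle, some genes of the other matrix lists were called, beside 17.1% of all genes. Ccn1, a matricellular protein induced by growth factors, was the single one of 15 matricellular genes called, with a log2 change of 1.199 ± 0.24 (limma adjusted p = 0.00303) and no overlap between groups. Of 19 matrix receptors, 2 were higher and 2 lower: the laminin receptor chains Itga7 and Itga3 had log2 changes of 0.78 and 0.84, and their partner Itgb1 had -0.40 (adjusted p = 0.0245), a call lost when only the C26 groups were fitted (adjusted p = 0.0705). The proteoglycan Gpc1, with a gene on the opposite strand over 18.9% of its exonic bases, had 0.59 without overlap, and Sdc4 had -0.97. In the TGF-beta list, 2 of 18 were higher and 3 lower, with Tgfb2 at 0.48 and Tgif1 at -0.65. Of 23 collagen synthesis enzymes 1 was called, P3h1, a collagen prolyl 3-hydroxylase, at 0.29. The P3h1 call was lost in 6 of the 12 fits without 1 library, with limma adjusted p up to 0.102. None of the 15 elastic fibre genes, 11 small proteoglycans or 17 other proteases and inhibitors was called. The background was 9.78% higher and 7.32% lower.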
